A study of Mus musculus with 6 samples.

Results

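The joining (J) segments of the mouse T cell receptor alpha locus were read one by one from RNA-seq gene counts of sorted spleen CD4 T cells. The members are all genes of the count table whose identifier maps to a symbol starting with Traj in the GENCODE annotation of GRCm38, and there were 60 of them among 47729 genes. The annotation classes 51 as J genes and 9 as J pseudogenes (Traj61, Traj60, Traj55, Traj54, Traj51, Traj36, Traj14, Traj8 and Traj1). The values are raw counts per gene and library, and each segment is given as its share of all Traj counts of that library.

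The study sequenced 3 groups of 2 libraries each, numbered 1 and 2 here as in the labels. OFF libraries came from RBPJind mice, in which doxycycline (Dox) induces RBPJ, the DNA-binding partner of Notch receptors. These mice had Dox for 3 weeks and then 1 week without it. ON libraries came from RBPJind mice given Dox in the drinking water for 4 weeks. Both were sorted as CD3+CD4+CD25-CD45RBint, named immature naive T cells in the labels. WT libraries came from wild type mice and were sorted as CD3+CD4+CD25-CD45RBhi, named mature naive T cells. All 3 groups carry Dox as their treatment label, with no duration given for WT, and neither age nor the cells that carry the RBPJind alleles are given in the labels. Genotype and sort gate differ together between the RBPJind groups and WT, so their effects cannot be told apart, nor can those of RBPJ and of Dox withdrawal between OFF and ON. Whether the 2 libraries of a group are from different mice is not stated in the labels, so the p-values speak of the spread among these libraries alone, which may be technical.

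The alpha chain gene is assembled in thymocytes by RAG recombinase, which joins a V segment to a J segment and removes the DNA between them. The joined J and every J further downstream remain on the allele, and the primary transcript runs from the V promoter through them to the constant gene Trac before splicing. Early joins use J segments at the V-proximal end and later rounds move towards Trac. The invariant receptors of natural killer T (NKT) cells use Traj18, and those of mucosal-associated invariant T (MAIT) cells use Traj33. The count table records neither the V segment nor the splice junction of a read.

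The segments lie in a single run on the + strand of chromosome 14, chr14:54155005-54218842 (GRCm38), from Traj61 at the V-proximal end to Traj1 at the end next to Trac (chr14:54220521-54224206). They span 63.8 kb, and the last one ends 1.68 kb before Trac. Annotated lengths were 29 to 72 bases, with a median of 61, and gaps between neighbours were 146 to 2606 bases. None of the 60 overlapped another annotated gene. The longest exact run that any pair of members shared was 16 bases, so none of them is a near-identical copy of another.

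Below are 10 sequences, shown because the results turn on them and read 5′ to 3′ from the GENCODE transcripts on GRCm38. Capitals mark the codons of the Phe-Gly-X-Gly motif, which in a J segment follows the third hypervariable loop. The first 5 had the highest counts, Traj11 was the only one called in a test, Traj33 is the one used by MAIT receptors, and the last 3 stood far below or above their neighbours.
Traj6: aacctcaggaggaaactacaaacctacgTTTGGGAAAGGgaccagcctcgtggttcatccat
Traj22: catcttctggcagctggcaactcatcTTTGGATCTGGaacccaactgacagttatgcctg
Traj18: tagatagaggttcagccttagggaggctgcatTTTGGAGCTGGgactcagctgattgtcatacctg
Traj12: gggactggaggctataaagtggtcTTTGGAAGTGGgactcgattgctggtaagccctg
Traj9: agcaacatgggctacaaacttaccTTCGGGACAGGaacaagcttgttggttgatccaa
Traj11: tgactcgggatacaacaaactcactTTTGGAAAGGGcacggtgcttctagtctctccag
Traj33: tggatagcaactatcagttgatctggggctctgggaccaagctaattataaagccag
Traj5: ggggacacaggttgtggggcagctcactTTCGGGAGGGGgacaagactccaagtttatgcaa
Traj8: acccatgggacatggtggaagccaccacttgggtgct
Traj51: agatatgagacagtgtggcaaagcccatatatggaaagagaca
Traj6 lies at chr14:54212688-54212749, Traj22 at chr14:54197248-54197307, Traj18 at chr14:54200777-54200842, Traj12 at chr14:54206553-54206610 and Traj9 at chr14:54209393-54209450. Traj11 lies at chr14:54207139-54207197, Traj33 at chr14:54185358-54185414, Traj5 at chr14:54213777-54213838, Traj8 at chr14:54209918-54209954 and Traj51 at chr14:54166239-54166281. The motif was searched as TTTGGNNNNGG or TTCGGNNNNGG, which do not overlap in any member. It was found on the coding strand of 42 of the 51 J genes and 1 of the 9 pseudogenes, and on the reverse strand of 0 members. Among windows of 61 bases in 32544 RefSeq promoter sequences (GRCm38), 0.75% held it on the forward strand and 0.605% on the reverse. Traj33 is a J gene without a match to these letters. Traj8 and Traj51 are pseudogenes without one, and Traj5, a J gene with few counts, has one.

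The libraries held 17025551 to 19319183 counts in genes. CD4 T cell genes were high in all of them: Cd4 averaged 676 ± 37.2 CPM in OFF, 667 ± 33.2 in ON and 624 ± 28.5 in WT (SD, n = 2; CPM are counts relative to library size, scaled by TMM), and Cd3e averaged 392 ± 49.7 CPM in OFF, 419 ± 2.99 in ON and 317 ± 14.8 in WT. The 5 B cell markers were all above 0 and summed to 187 and 232 CPM in OFF, 214 and 185 in ON, and 33.3 and 25.4 in WT, mostly from Cd74. The 4 myeloid markers summed to 34.0 and 45.9 CPM in OFF, 42.8 and 41.0 in ON, and 15.3 and 15.5 in WT. At an edgeR adjusted p under 0.05, 5 of the 5 B cell markers were called higher in OFF against WT and 4 in ON against WT. Of the 4 myeloid markers, 2 and 3 were called higher in these comparisons, beside 6.83% and 14.8% of all genes called. Between OFF and ON, 0 markers of either list were called. The 2 CD8 T markers summed to 14.2 and 18.0 CPM in OFF, 18.1 and 23.7 in ON, and 14.4 and 13.8 in WT. Most of that sum was Cd8b1; Cd8a alone had 3.06 and 4.09 CPM in OFF, 5.72 and 5.85 in ON, and 0.419 and 1.28 in WT, and was called higher in OFF against WT and in ON against WT (edgeR adjusted p = 0.0286 and 0.00322). The part of these cells in the Traj values was not tested. The libraries of a group stood far apart in some Traj values, OFF 1 in the total and ON 2 in the profile, and the results that rest on them are also given without them.

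Traj segments took a small share of gene counts, and this share differed more between the OFF libraries than between the group means. OFF libraries held 8327 and 4789 Traj counts, which were 0.0462% (0.0452 to 0.0472) and 0.0278% (0.0271 to 0.0286) of gene counts. ON libraries held 5739 and 6359, or 0.0303% (0.0295 to 0.0310) and 0.0329% (0.0321 to 0.0337). WT libraries held 5758 and 7448, or 0.0336% (0.0328 to 0.0345) and 0.0438% (0.0428 to 0.0448). The ranges in parentheses after the shares of single libraries are exact (Clopper-Pearson) 95% binomial intervals, which cover counting error only. Group means were 0.037 ± 0.0129% in OFF, 0.0316 ± 0.00189% in ON and 0.0387 ± 0.00716% in WT (SD, n = 2). The higher OFF library lay above every other library and the lower one below every other, 1.66-fold apart. The ON libraries were 1.09-fold apart and the WT libraries 1.3-fold. Both ON libraries lay below both WT libraries, although the intervals of the nearest pair overlap. With 2 libraries against 2, an exact two-sided permutation test cannot go below p = 0.333, so no test of this share was made. In bulk RNA, fewer cells with a transcript and less of it per cell cannot be told apart.

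Trac did not follow the Traj total in any group, and the V alpha segments did not follow it in OFF and WT. Trac, the constant gene, had 5407 and 6967 counts in OFF, 5653 and 4555 in ON, and 4769 and 4432 in WT. The number of Traj counts per Trac count was 1.54 and 0.687 in OFF, 1.02 and 1.40 in ON, and 1.21 and 1.68 in WT. The library with more Traj counts was thus the one with fewer Trac counts in each group. The 128 annotated V alpha genes (Trav) together had 2655 and 2736 counts in OFF, 2916 and 3258 in ON, and 2200 and 2173 in WT. In ON the library with more Traj counts also had more Trav counts, with 1.97 and 1.95 Traj counts per Trav count. The J segments of the beta locus (Trbj) summed to 762 and 505 counts in OFF, 765 and 922 in ON, and 660 and 844 in WT, so in each group the library with more Traj counts also had more Trbj counts. Reads outside annotated genes numbered 0.614 and 0.437 per gene count in OFF, 0.517 and 0.511 in ON, and 0.730 and 0.766 in WT. Their part in the Traj total was not tested.

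**Figure D1:**
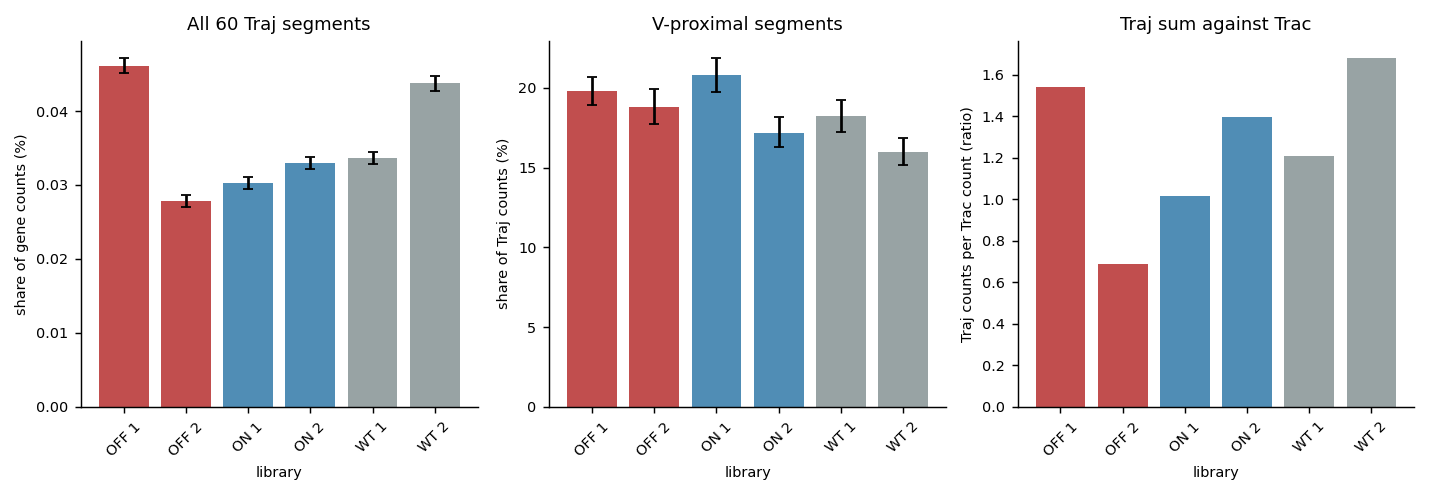
Traj counts as a percent of gene counts, the share of Traj counts in the 30 V-proximal segments (both with exact 95% binomial intervals as error bars) and the number of Traj counts per Trac count, per library; OFF libraries stand on the left, then ON, then WT. The 2 OFF libraries are the highest (0.0462%) and the lowest (0.0278%) of the 6 in the first quantity.

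Counts were higher towards Trac in every library. All 60 members had at least 1 count in each library; the lowest count in a library was 1 or 2 and the highest 430 to 957. Divided into sixths by position, the 10 segments Traj61 to Traj52 held a mean of 1.51% of Traj counts over the 6 libraries, Traj51 to Traj42 5.91%, Traj41 to Traj32 11.1%, Traj31 to Traj22 23.4%, Traj21 to Traj12 28.9% and Traj11 to Traj1, which has no Traj10, 29.2%. The last 3 sixths were thus close to each other, and most of the difference lay in the V-proximal part. Over the 60 segments, Spearman's rank correlation between genome order and count was 0.768 and 0.797 in OFF, 0.75 and 0.732 in ON, and 0.788 and 0.816 in WT. Per base of segment and over the 51 J genes alone it was 0.788 and 0.81 in OFF, 0.775 and 0.768 in ON, and 0.807 and 0.839 in WT. These are descriptions across segments of the same libraries, which are not replicates.

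**Figure D2:**
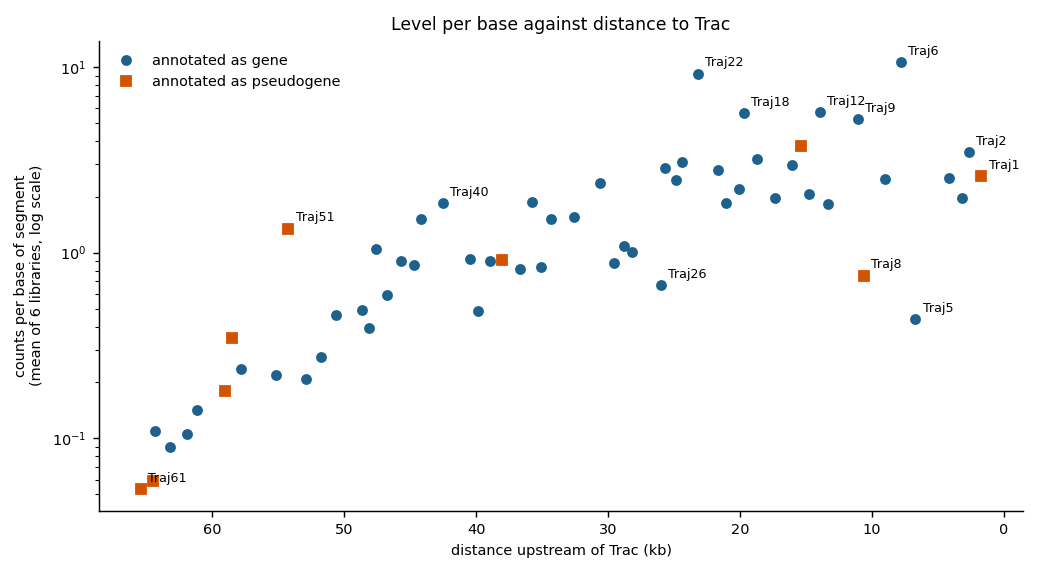
Counts per base of segment (mean of 6 libraries, log scale) against the distance of each J segment upstream of Trac in kb, with J genes and pseudogenes as separate symbols. Levels climb from 0.0532 at Traj61 to 10.6 at Traj6, while single segments such as Traj5 (0.438) and Traj8 (0.752) fall far below their neighbours.

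Annotated pseudogenes shared this slope. The 9 pseudogenes held 2300 of the 38420 Traj counts, 5.99%. Among the 30 segments next to Trac, 3 pseudogenes (Traj14, Traj8 and Traj1) had a median of 15.5 counts per base summed over the libraries, against 14.8 for 27 J genes. These 3 pseudogenes are annotated at only 34, 37 and 29 bases. Not divided by length, their median was 449 counts, against 879 for the 27 J genes. Among the 30 V-proximal segments, 6 pseudogenes had a median of 1.59 counts per base and 24 J genes 3.26, or 90.5 and 198.5 in plain counts. J genes with the Phe-Gly-X-Gly codons among the 30 segments next to Trac had a median of 15.2 counts per base (n = 23) and those without them 11.5 (n = 4). With so few members these medians are descriptions without a test.

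The V-proximal 30 segments (Traj61 to Traj32) held 19.8% (19.0 to 20.7) and 18.8% (17.7 to 20.0) of Traj counts in OFF, 20.8% (19.7 to 21.9) and 17.2% (16.3 to 18.1) in ON, and 18.2% (17.3 to 19.3) and 16.0% (15.2 to 16.8) in WT. Group means were 19.3 ± 0.699% in OFF, 19.0 ± 2.55% in ON and 17.1 ± 1.59% in WT (SD, n = 2). Both OFF libraries lay above both WT libraries, by less than the width of the intervals for the nearest pair, and the ON libraries overlapped both groups. The second sixth, Traj51 to Traj42, held 6.81% (6.28 to 7.37) and 6.04% (5.38 to 6.75) in OFF, 6.81% (6.18 to 7.50) and 5.91% (5.35 to 6.52) in ON, and 5.26% (4.70 to 5.87) and 4.61% (4.14 to 5.11) in WT. Both WT libraries were the lowest there, although the intervals of the nearest libraries overlap; this sixth was picked with its values known. The first sixth was 1.34% to 1.70% in all 6 libraries. The midpoint of Traj counts, counting from the V-proximal end, was reached at Traj19 in OFF 1 and at Traj18 in the other 5 libraries.

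**Figure D3:**
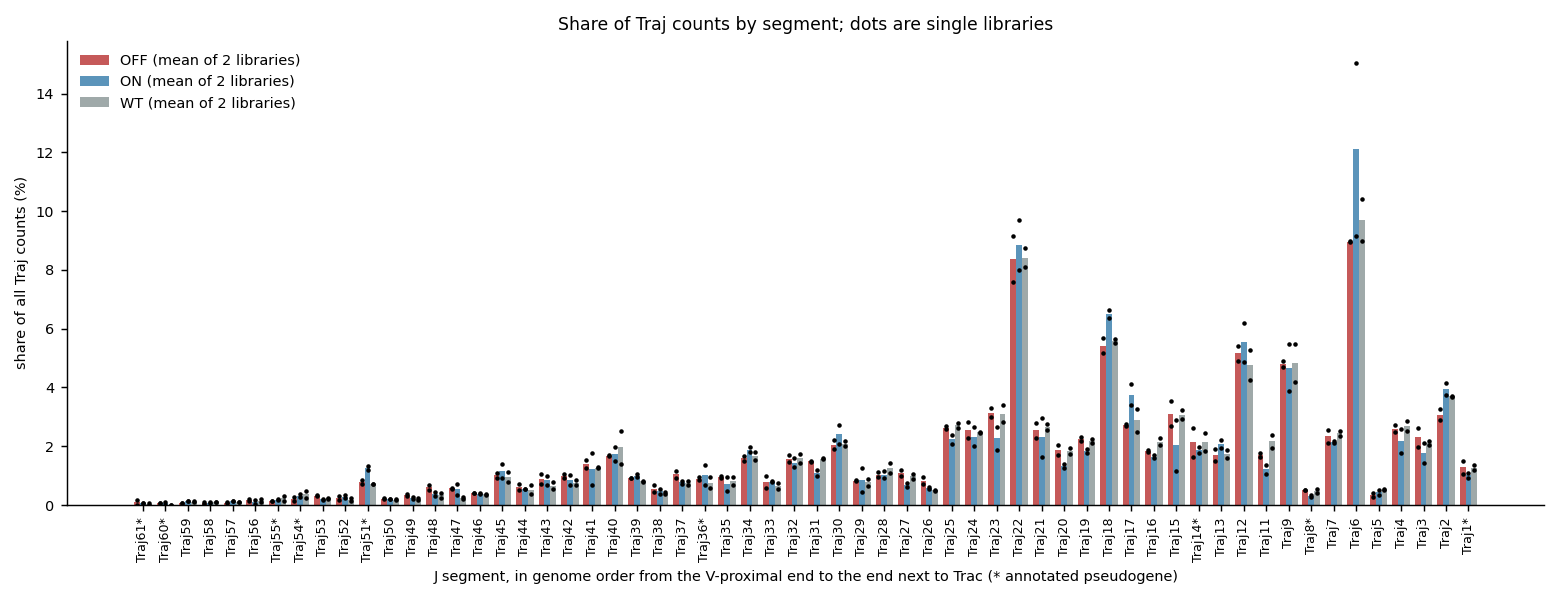
Share of all Traj counts (%) for each J segment in genome order from the V-proximal end to the end next to Trac; bars are means of 2 libraries for OFF, ON and WT, points are single libraries, and asterisks mark pseudogenes. The same segments stand out in all 3 groups, with Traj6 (10.3% over all libraries) and Traj22 (8.55%) highest.

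On top of this slope a few segments dominated. Traj6 had 745 and 430 counts in OFF, 526 and 957 in ON, and 518 and 777 in WT, a total of 3953 and a mean share of 10.3%. Traj22 had 763 and 363 counts in OFF, 460 and 616 in ON, and 466 and 652 in WT, with a mean share of 8.55%. Traj6 was the highest segment in 5 libraries and Traj22 in OFF 1. Traj18, the segment of the NKT receptor, came next with 472 and 248 counts in OFF, 380 and 404 in ON, and 318 and 422 in WT, and a mean share of 5.84%. Traj12, with 408 and 260 counts in OFF, 280 and 394 in ON, and 245 and 393 in WT, had a mean share of 5.16%. Its raw count was highest in OFF 1, and its share was highest in ON 2, at 6.20%. Traj9 had 391 and 234 counts in OFF, 222 and 349 in ON, and 316 and 312 in WT, a mean share of 4.77%. Traj2 had 271 and 139 counts in OFF, 215 and 264 in ON, and 214 and 275 in WT, a mean share of 3.58%. In none of these 6 did the counts of one group all lie above those of every other group. Together they held 36.9% and 35.0% of Traj counts in OFF, 36.3% and 46.9% in ON, and 36.1% and 38.0% in WT.

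Neighbouring segments differed many-fold. Mean shares over the 6 libraries were compared with the median of those of the 2 segments on each side. Traj6 was 7.50-fold, Traj51 3.84-fold, Traj22 3.45-fold, Traj18 2.94-fold, Traj12 2.65-fold and Traj9 2.38-fold as high as its neighbours. At the other end Traj8 stood at 0.122, Traj5 at 0.180, Traj26 at 0.356 and Traj20 at 0.403 of theirs. Traj5, the segment just downstream of Traj6, had 24 and 19 counts in OFF, 30 and 22 in ON, and 31 and 37 in WT. Per base of segment, Traj6 had 10.6 counts and Traj5 0.438 as the mean of the 6 libraries, and both are 62 bases long and carry the Phe-Gly-X-Gly codons shown above. Traj8, the short pseudogene next to Traj9, had 42 and 25 counts in OFF, 19 and 17 in ON, and 24 and 40 in WT. At the ends of the run, Traj61 had 1 and 8 counts in OFF, 4 and 5 in ON, and 1 and 4 in WT, and Traj1 had 88 and 72 in OFF, 63 and 59 in ON, and 78 and 89 in WT. Traj51, Traj5, Traj8, Traj26 and Traj20 were named after their values were seen.

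The profile of shares was alike in all libraries except the second ON library. Pearson's r of shares over the 60 segments was 0.97 to 0.989 between the other 5 libraries, and 0.941 to 0.958 between ON 2 and each of them. The chi-square per degree of freedom of the counts, which is near 1 for sampling noise alone, was 1.92 between the OFF libraries, 6.20 between the ON libraries and 2.26 between the WT libraries. The libraries of each group thus differed by more than counting noise. The share of Traj6 was 8.95% (8.34 to 9.58) and 8.98% (8.18 to 9.82) in OFF, 9.17% (8.43 to 9.94) and 15.1% (14.2 to 16.0) in ON, and 9.00% (8.27 to 9.77) and 10.4% (9.75 to 11.2) in WT. ON 2 alone stood apart, by 5.88 percentage points from ON 1, while the other 5 libraries lay within 8.95% to 10.4%. In the same library Traj22 was 1.67 points, Traj9 1.62 points and Traj12 1.32 points above ON 1, and Traj15 was 1.75 points below it, with 74 counts against 167. The effective number of segments, the inverse of the summed squared shares, was 27.1 and 28.6 in OFF, 27.5 and 18.8 in ON, and 27.7 and 25.1 in WT. Mean shares of Traj6 were 8.96 ± 0.0227% in OFF, 12.1 ± 4.16% in ON and 9.71 ± 1.02% in WT, the largest differences of mean share in all 3 comparisons. The difference between OFF and WT (-0.75 points) came mostly from WT 2, as Traj6 had 9.00% in WT 1 and 8.95% and 8.98% in OFF. The differences that involve ON rested on ON 2. With ON 1 alone, the share of Traj6 in OFF minus that in ON was -0.20 points, and that in ON minus that in WT was -0.55 points, ranks 28 and 9 of the 55 segments with at least 50 counts. Traj18 then had the largest difference in both, at -1.20 points for OFF minus ON and 1.03 points for ON minus WT.

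**Figure D4:**
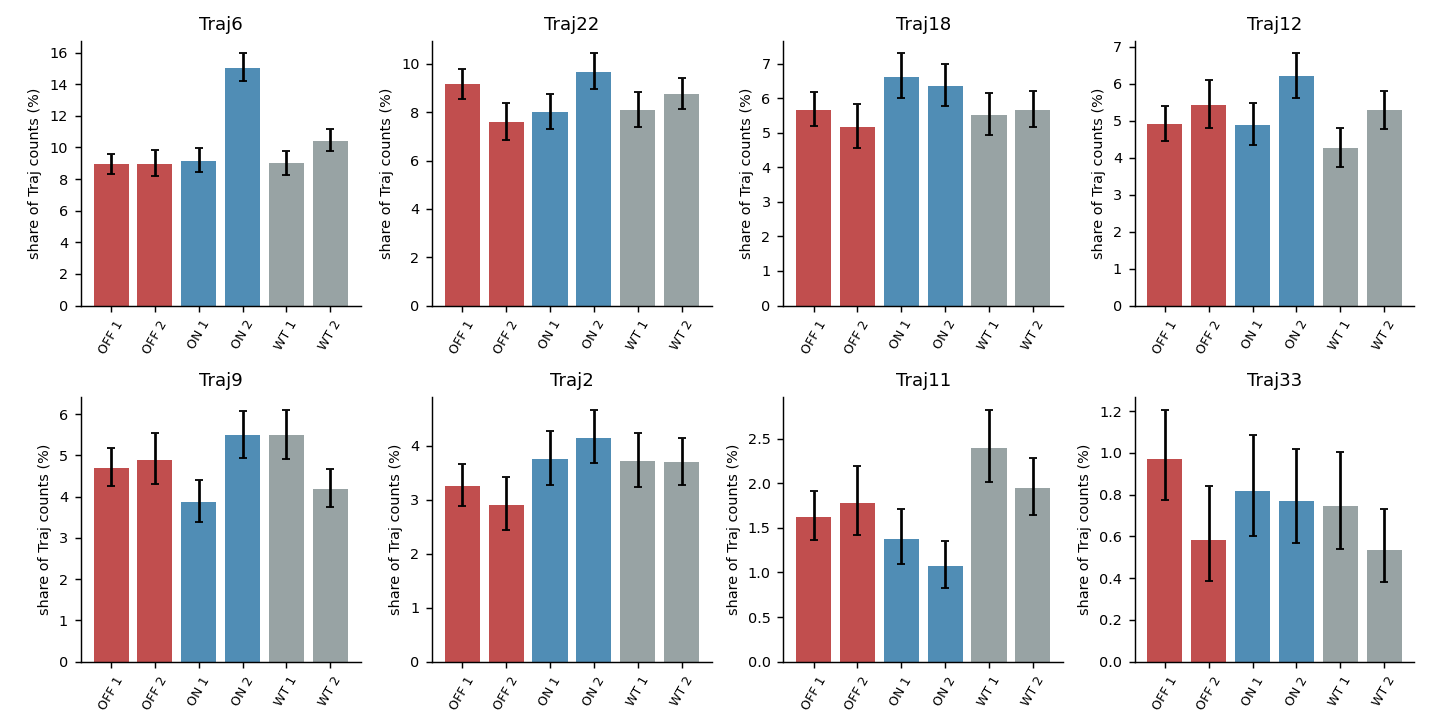
Share of all Traj counts (%) in each of the 6 libraries for 8 segments, each panel with its own axis from 0, with exact 95% binomial intervals; OFF libraries are on the left, then ON, then WT. Traj6 reaches 15.1% in the second ON library and lies between 8.95% and 10.4% in the others, and Traj11 is lowest in both ON libraries.

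The segments of the invariant receptors did not separate the groups by test. Shares of Traj18 were 5.67% (5.18 to 6.19) and 5.18% (4.57 to 5.84) in OFF, 6.62% (5.99 to 7.30) and 6.35% (5.77 to 6.98) in ON, and 5.52% (4.95 to 6.14) and 5.67% (5.15 to 6.22) in WT. Both ON shares were the highest, and their intervals overlap those of the other libraries except between ON 1 and OFF 2. Its log2 fold change in CPM was 0.10 ± 0.25 for OFF against ON, -0.14 ± 0.25 for ON against WT and -0.05 ± 0.25 for OFF against WT (SE; edgeR quasi-likelihood test, Benjamini-Hochberg adjusted p = 0.868, 0.748 and 0.949). Traj33 had 81 and 28 counts in OFF, 47 and 49 in ON, and 43 and 40 in WT. Its shares were 0.973% (0.773 to 1.21) and 0.585% (0.389 to 0.844) in OFF, 0.819% (0.602 to 1.09) and 0.771% (0.571 to 1.02) in ON, and 0.747% (0.541 to 1.01) and 0.537% (0.384 to 0.731) in WT, and the OFF libraries spanned those of both other groups except the lower WT one. Its log2 fold change was 0.41 ± 0.43 for OFF against ON, -0.02 ± 0.45 for ON against WT and 0.39 ± 0.44 for OFF against WT (SE; edgeR adjusted p = 0.648, 0.984 and 0.680). Trav11, the V segment of the NKT receptor, had 0 counts in all 6 libraries, and its copy Trav11d had 2 counts in ON 1 and 0 elsewhere. A count of 0 allows up to 3 counts in a library from counting error alone. How reads that match both copies were counted is not given, so these counts do not show that the transcript was absent. Trav1, the V segment of the MAIT receptor, had 5 and 5 counts in OFF, 7 and 10 in ON, and 4 and 4 in WT. The NKT and MAIT cell genes Zbtb16, Klrb1c and Klrk1 summed to 3.58 and 8.41 CPM in OFF, 1.99 and 2.78 in ON, and 5.26 and 3.20 in WT. Of these, Zbtb16 had 1.56 and 1.80 CPM in OFF, 0.307 and 0.743 in ON, and 2.57 and 2.27 in WT, and was called lower in ON against WT (edgeR adjusted p = 0.0140). Klrk1 made up 5.53 of the 8.41 CPM of OFF 2. A J count does not show which V it was joined to.

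The counts of all genes were fitted together with edgeR, and an adjusted p under 0.05 was called. After a filter on low counts 15780 genes were tested, 55 of the 60 Traj among them. The 5 that did not, Traj61 to Traj57, are the first 5 by position. OFF and ON and ON and WT share the ON libraries, OFF and WT and ON and WT the WT libraries, and OFF and ON and OFF and WT the OFF libraries, so the comparisons are not independent of each other.

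Between OFF and ON no Traj was called, and a higher level of most in OFF rested on 1 library. Of the 55 tested, 0 had an adjusted p under 0.05 with edgeR's quasi-likelihood test, against 1.03% of all genes, and DESeq2 and limma-voom also called 0. At an unadjusted p under 0.05, 11 (20.0%) passed, all higher in OFF, against 19.1% of all genes. Fold changes lay above 0 for 47 and below 0 for 8, with a median log2 fold change of 0.46, against 0.00 over all genes tested, and a range of -0.39 to 1.21. The CPM of the groups did not overlap for 22 (40.0%) that were higher in OFF, against 23.4% of all genes, and for 1 (1.82%) that was lower, against 23.3%. Without OFF 1 the median was 0.07, with 30 above 0 and 26 below, and without OFF 2 it was 0.71, with 53 above 0 and 3 below. Traj20 had the smallest adjusted p (0.144), with 143 and 98 counts in OFF and 73 and 88 in ON and a log2 fold change of 0.81 ± 0.26 (SE). Traj6 differed by -0.11 ± 0.34 (adjusted p = 0.895) and Traj22 by 0.29 ± 0.32 (adjusted p = 0.668) in the same edgeR test. For Traj1, next to Trac, the log2 fold change was 0.62 ± 0.26 (adjusted p = 0.243), with OFF above ON in both libraries.

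Between ON and WT, Traj11 fell, and it was the only segment called. Its counts were 135 and 85 in OFF, 79 and 68 in ON, and 138 and 145 in WT. In CPM it had 7.80 and 5.11 in OFF, 4.04 and 3.37 in ON, and 8.25 and 8.43 in WT, so both ON libraries were below all others. Its log2 fold change for ON against WT was -1.17 ± 0.27 (SE), 2.25-fold lower, with an adjusted p of 0.0194 in edgeR's quasi-likelihood test with Benjamini-Hochberg adjustment, and DESeq2 and limma-voom called it too. As a share of Traj counts it was 1.38% (1.09 to 1.71) and 1.07% (0.831 to 1.35) in ON, and 2.40% (2.02 to 2.83) and 1.95% (1.65 to 2.29) in WT. The call was lost without ON 2 (adjusted p = 0.0614), without WT 1 (0.109) or without WT 2 (0.139), with a log2 fold change between -1.28 and -1.02 in all 14 alternatives and an adjusted p between 0.00570 and 0.139. Against OFF, whose Traj11 level lay between those of the other groups, ON was not called, with a log2 fold change of 0.80 ± 0.27 for OFF against ON (adjusted p = 0.161) and -0.37 ± 0.25 for OFF against WT (adjusted p = 0.451).

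The other segments also lay lower in ON than in WT for the most part, without passing the test. The 1 called of 55 is 1.82%, against 14.8% of all genes called and 5.16% called lower. At an unadjusted p under 0.05, 12 (21.8%) passed, all lower in ON, against 30.5% of all genes. Fold changes lay above 0 for 6 and below 0 for 49, with a median log2 fold change of -0.37, against -0.02 over all genes tested, and a range of -1.17 to 0.75. The CPM of the groups did not overlap for 27 (49.1%) that were lower in ON, against 30.0% of all genes, and for 1 (1.82%) that was higher, against 29.8%. That one was Traj51, with 77 and 76 counts in ON, against 42 and 53 in WT, and a log2 fold change of 0.46 ± 0.30 (edgeR adjusted p = 0.336). In OFF it had 60 and 40 counts. Its share was 0.721% (0.550 to 0.927) and 0.835% (0.597 to 1.14) in OFF, 1.34% (1.06 to 1.67) and 1.20% (0.943 to 1.49) in ON, and 0.729% (0.526 to 0.985) and 0.712% (0.534 to 0.930) in WT, highest in both ON libraries. Leaving out 1 library at a time, the median over all Traj tested lay between -0.47 and -0.26. Traj1 had a log2 fold change of -0.68 ± 0.26 (adjusted p = 0.113), Traj6 one of -0.04 ± 0.34 and Traj9 one of -0.37 ± 0.25.

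Between OFF and WT no Traj was called and there was no common direction. Of the 55 tested, 0 were called with edgeR's quasi-likelihood test, DESeq2 or limma-voom, against 6.83% of all genes with edgeR. Fold changes lay above 0 for 31 and below 0 for 24, with a median log2 fold change of 0.04, against 0.01 over all genes. Only Traj47 passed an unadjusted p under 0.05 (1.82%, against 22.1% of all genes), with 46 and 28 counts in OFF, 41 and 22 in ON, and 11 and 21 in WT, and a log2 fold change of 1.20 ± 0.50 (SE; edgeR adjusted p = 0.198). The CPM of the groups did not overlap for 7 (12.7%) that were higher in OFF, against 29.8% of all genes, and for 4 (7.27%) that were lower, against 25.8%. The direction turned with the library left out. Without OFF 1 the median was -0.37, with 9 above 0 and 47 below, and without OFF 2 it was 0.34, with 49 above 0 and 7 below. Without WT 1 it was -0.12 (20 above, 36 below) and without WT 2 it was 0.25 (45 above, 10 below). The 6 segments of highest share had log2 fold changes between -0.26 (Traj2) and 0.06 (Traj12).

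**Figure D5:**
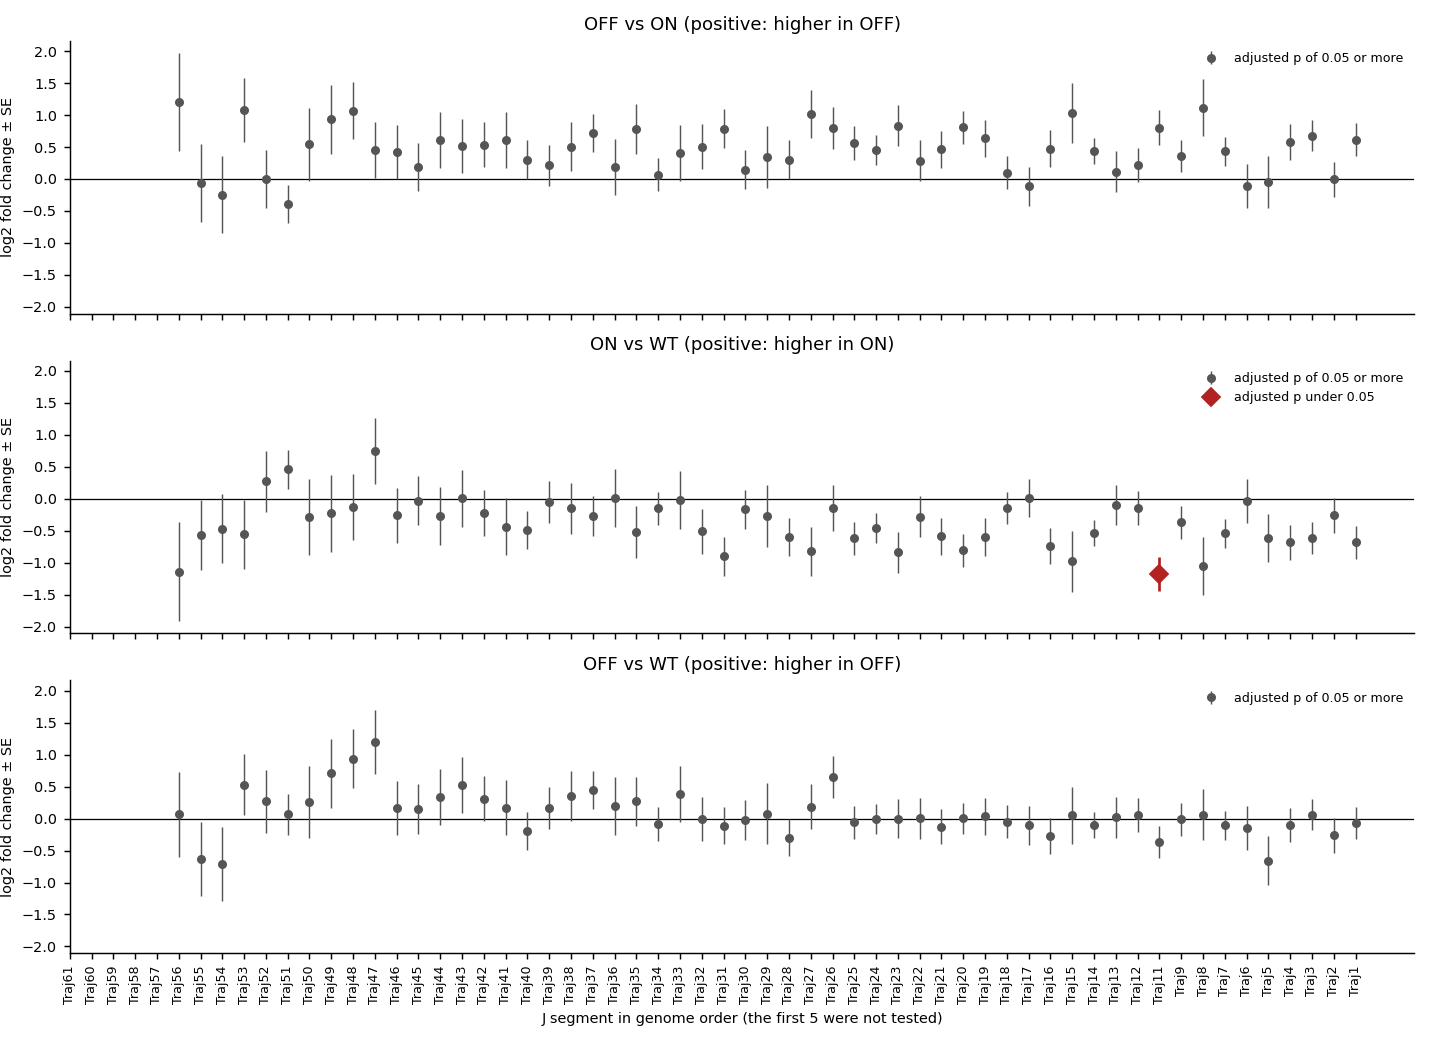
Log2 fold change with its SE for each tested J segment in genome order, for OFF against ON, ON against WT and OFF against WT (positive is higher in the group named first in each panel). Traj11 in ON against WT (-1.17) is the only segment with an adjusted p under 0.05, and 49 of 55 lie below 0 in that panel.

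Genes of the recombination machinery, the receptor complex and the alpha enhancer were read beside the Traj values, and any link between them was not tested. Of 16 genes of V(D)J recombination and end joining, 14 passed the filter. Hmgb2, a DNA-bending protein that aids RAG, averaged 257 ± 48.5 CPM in OFF, 513 ± 125 in ON and 126 ± 17.0 in WT (SD, n = 2). It fell by 1.00 on the log2 scale in OFF against ON (edgeR adjusted p = 0.0491), and rose in ON against WT by 2.03 (adjusted p = 3.95e-04) and in OFF against WT by 1.04 (adjusted p = 0.0160). In ON against WT its relative Hmgb1 rose by 0.85 and the DNA damage kinases Atm and Prkdc fell by 0.47 and 0.43, and none of the others was called in any comparison. The called members were 1 of 14 (7.14%) for OFF against ON, 4 of 14 (28.6%) for ON against WT and 1 of 14 (7.14%) for OFF against WT, beside 1.03%, 14.8% and 6.83% of all genes. The median log2 fold change of the 14 was 0.04 for OFF against ON, 0.04 for ON against WT and 0.06 for OFF against WT. Rag1, Rag2 and the thymic gene Ptcra did not pass the filter. Rag1 lay at 0.0581 to 0.562 CPM and Rag2 at 0 to 0.347 CPM over the libraries.

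Of 8 genes for receptor chains and CD3, 7 passed the filter. Trbc1 was called, higher by 0.54 ± 0.14 in ON against WT (edgeR adjusted p = 0.0328), which is 1 of 7 (14.3%), near the 14.8% of all genes, and 0 of 7 were called in each of the other comparisons. Trac averaged 366 ± 75.2 CPM in OFF, 257 ± 44.7 in ON and 272 ± 19.5 in WT, and both OFF libraries were above all others, but it was not called (OFF against ON 0.51 ± 0.17, adjusted p = 0.156). Of 15 factors known to bind the alpha enhancer, Myb averaged 172 ± 6.02 CPM in OFF, 104 ± 9.63 in ON and 35.1 ± 0.829 in WT and differed in each comparison, with log2 fold changes of 0.73 for OFF against ON (edgeR adjusted p = 0.0263), 1.56 for ON against WT (1.06e-04) and 2.29 for OFF against WT (4.31e-05). Tcf3 rose by 0.68 in ON against WT and Gata3 by 0.48 in OFF against WT. The called members were 1 of 15 (6.67%) for OFF against ON, 2 of 15 (13.3%) for ON against WT and 2 of 15 (13.3%) for OFF against WT, beside 1.03%, 14.8% and 6.83% of all genes. Their median log2 fold change was 0.13 for OFF against ON, 0.06 for ON against WT and 0.21 for OFF against WT. Of the thymocyte markers, 3 of 6 passed the filter, and Sox4 averaged 105 ± 23.0 CPM in OFF, 48.5 ± 3.78 in ON and 24.7 ± 6.16 in WT and was called in each comparison. Cd24a was called higher in OFF against WT alone, at 9.78 ± 6.31 CPM in OFF, 2.93 ± 1.27 in ON and 1.29 ± 0.391 in WT. Dntt, which adds bases at the joins, was not called and had 7.91 and 5.35 CPM in OFF, 5.01 and 13.4 in ON, and 9.33 and 11.7 in WT. Trdc, the delta chain constant gene, lies downstream of the V alpha segments and upstream of the J run, and had 145 and 173 counts in OFF, 201 and 152 in ON, and 84 and 66 in WT. It rose by 1.08 in OFF against WT (adjusted p = 0.0403) and by 1.01 in ON against WT (adjusted p = 0.0309), and its part in the Traj values was not tested.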

How the data were processed

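RNA-seq gene counts of 6 libraries, 2 per group, were used as the authors deposited them: whole-number counts per gene, not normalized. Per the labels' protocols, sequencing was on a NovaSeq and alignment to GRCm38; R 3.6.2 and edgeR stand in the submitters' processing notes. Not given in the sources used here are the aligner, counting program, strand setting and annotation, so antisense reads may be included. Summary rows of the deposited table entered neither library sizes nor tests; reads with no feature made up 17.0% to 27.1% of a library and reads that did not align 9.34% to 24.3%, while 33.7% to 46.9% were assigned to genes.

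Gene identifiers were matched to GENCODE mouse release M 21 (47310 of 47729 matched). The gene-level counts were filtered with filterByExpr (minimum count 10, minimum total 15), scaled by TMM and tested with edgeR 4.0.16 (R 4.3.3; glmQLFit, robust, current method), all 6 libraries in 1 fit with 3 residual degrees of freedom; a Benjamini-Hochberg adjusted p under 0.05 was called. The biological coefficient of variation was 15.8%. Alternatives were DESeq2 1.42.0, limma 3.58.1, other scalings and filters, the older quasi-likelihood method, a block for replicate number and omission of each library in turn. The steps were tested on simulated data for OFF against ON. There 55.7% of genes changed by 1 on the log2 scale were called and 93.7% of those changed by 2, and 5.02% of calls were false. A Traj change of the smaller size could thus go uncalled. Shares, with Clopper-Pearson intervals at 95%, came from scipy 1.17.1.

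Values per library are given for segments called in a comparison, the 6 of highest mean share, the first and last by position, Traj18 and Traj33, and the largest difference of mean share per comparison. The members and lists were chosen with earlier results of these data known.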

Additional observations from a re-analysis of the deposited data

How the results depend on the processing

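The number of Traj called stayed at 0 for OFF against ON and for OFF against WT in all 14 alternatives. For ON against WT it was 0 to 2 when 1 library was left out: 2 without OFF 2, where Traj23, named after its values were seen, joined Traj11, and 0 without ON 2, WT 1 or WT 2. Such fits assume that the remaining library of the group varies as the other groups do. With J genes alone, which leaves out the pseudogene counts, the Traj share of gene counts in ON was 0.0297% and the V-proximal share in OFF 18.2%. Without the 3 highest members (Traj6, Traj22 and Traj18) the V-proximal share was 25.0% in OFF, 26.1% in ON and 22.4% in WT. All 3 lie among the segments next to Trac, so leaving them out can only raise this share. Leaving out 1 library of a group gives the share of its other library, so these ranges repeat the values of single libraries. The Traj share of gene counts ranged from 0.0278% to 0.0462% in OFF, 0.0303% to 0.0329% in ON and 0.0336% to 0.0438% in WT. The V-proximal share ranged from 18.8% to 19.8% in OFF, 17.2% to 20.8% in ON and 16.0% to 18.2% in WT. Why the libraries of a group differed was not tested. The older quasi-likelihood method and the medians were added after seeing the data.

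Library titles give replicate numbers but state no pairing. Deviations of same-numbered libraries from their group means correlated at -0.32 between OFF and ON, -0.28 between OFF and WT and 0.09 between ON and WT. With 2 libraries per group these values cannot show whether libraries were matched. A fit with the replicate block called 0, 1 and 0 Traj for OFF against ON, ON against WT and OFF against WT, and 60, 1441 and 663 of all genes, against 162, 2342 and 1078 without it. Segments with under 20 counts in all, such as Traj60 with 19, carry wide counting errors.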
